A study of Mus musculus with 12 samples.

Results

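The set described here holds 414 cytosines in 362 genes of mouse polyadenylated RNA whose 5-methylcytosine level could be read in heart, muscle, liver and small intestine but not in lung or spleen or either. They were chosen by read depth from the 2498 cytosines, in 1964 genes, of the authors' deposited table. A member had at least 20 reads in each of the 4 tissues and fewer than 20, or a blank cell, in lung, in spleen or in both. The 11 such cytosines on chromosome MT were left out. Of the 414, 234 lacked depth in both tissues, 58 in lung alone and 122 in spleen alone. The other 800 sites off chromosome MT with this depth in the 4 tissues were covered in all 6, lay in 665 genes, and are set beside the members as a description without a test. The read counts are what chose the members, so they are described below and nothing rests on them. The levels were not part of this rule, but they had a part in which sites the table lists: 1743 of its 2498 sites, and 360 of the members, carry the authors' call of an m5C site in at least 1 tissue. A site called by the authors in 1 tissue alone was high there through that call, and where this holds its difference is given as a description, with no p.

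5-Methylcytosine (m5C) is a cytosine with a methyl group on carbon 5 of the ring, placed on RNA by enzymes of the NSUN family and by DNMT2. In mRNA, NSUN2 is known for cytosines followed by a G-rich stretch and NSUN6 for cytosines in a CTCCA motif. Bisulfite turns an unmodified cytosine into a base that is read as T and leaves m5C as C, so the level at a site is the share of its reads that still show C. A cytosine in tightly paired RNA can also escape conversion, and the method by itself does not separate it from a methylated one.

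The libraries came from wild-type (WT) C57BL/6 mice aged 8 to 10 weeks. Muscle had 4 libraries, all female, and heart and liver had 1 female library each. Lung, small intestine and spleen each had 1 female and 1 male library, which makes 12 in all. Polyadenylated RNA was selected with a GenElute mRNA kit or with oligo dT beads, was treated by a modified EZ RNA methylation kit, and the deposited table holds 1 set of columns per tissue. No spread between animals can therefore be given for any value below. Each test compares deposited columns and covers the error of counting reads only, and tissue and sex cannot be told apart where the libraries differ in sex. These are whole tissues, so fewer cells of a type and less RNA per cell cannot be told apart in the read counts. Reads at listed sites of tissue markers went with the labels where such sites existed: Myh4, a myosin of fast skeletal muscle, had 1359239 reads in muscle, and Alb, serum albumin, had 1177520 in liver. Lyz1 and Defa24, genes of intestinal Paneth cells, had 10467 and 3324 in small intestine. Abca3, a lipid transporter of lung epithelium, had 981 reads in lung but 1001 in liver. None of the chosen markers of heart or spleen had a listed site, so those labels could not be checked.

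The bases around 23 members could be read, because the members lay in the windows from 250 bases before to 50 bases after a gene start that RefSeq gives for GRCm38.p6 (mm10). All 23 were cytosines on the annotated strand. The sequences below, credited to RefSeq, are written 5′ to 3′ on the strand of the transcript with each member in capitals, and where the motif CNGGG starts at the member the whole motif is in capitals. They were picked to show the member of highest mean level in a window, both members with the motif, the ribosomal protein genes, and a gene with neighbouring members.
Ptpn4, chr1:119837149-119837169, minus strand: catctcgccgCgaggtgcgag
Mpc2, chr1:165461254-165461274, plus strand: gctgccagagCCGGGgaaggg
Stx18, chr5:38039261-38039279, plus strand: cgagttcttgCCGGGgtcg
Rpl13a, chr7:45128713-45128733, minus strand: tcccaggcggCtgccgaagat
Rpl14, chr9:120571521-120571541, plus strand: tcgctgagcgCcgccaacatg
Rpl26, chr11:68901599-68901615, plus strand: ttgcggccatCggtgga
Esd, chr14:74732334-74732346, plus strand: ggggcggaagCCC
These stretches are rich in G and C. Over the 15 members with 10 bases on either side in the window, the median share of G and C in those bases was 75%, from 65.0% to 90.0%, against 70% over all 89 listed sites in such windows and 55% over all cytosines of the windows.

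Ptpn4, a tyrosine phosphatase gene, was among the 10 members of highest mean level, with 57.6% of 264 reads in heart, 49.7% of 147 in muscle, 57.9% of 95 in liver and 39.2% of 51 in small intestine. Rpl13a, a gene of the large ribosomal subunit, had 18.4% in heart, 17.1% in muscle, 29.5% in liver and 23.2% in small intestine, and no pair of these tissues was called different by the rule given below. Rpl14, of the same subunit, lay close together in all 4, with 10.2% in heart, 12.8% in muscle, 13.6% in liver and 10.6% in small intestine. The CNGGG motif, where N is any base and the member is the first C, started at 2 of the 20 members whose next 4 bases lay in the window (10%). It started at 12.2% of the 98 listed sites of any kind in such windows, and at 3.05% of all cytosines in the windows with chromosome 18 left out. CTCCA, with the member as its first C, started at 0 of the 20 members, against 7 of the 98 listed sites (7.14%) and 0.668% of window cytosines. Each motif was searched on the strand of the site only, and a cytosine cannot start both. Both members with CNGGG were low in heart, liver and small intestine, and Mpc2 was low in muscle too. Stx18, a SNARE protein gene, had 7.41% in heart, 23.8% of 21 reads in muscle, 2.38% in liver and 2.174% in small intestine. Mpc2, a subunit of the mitochondrial pyruvate carrier, had 0.668% in heart, 1.69% in muscle, 0.692% in liver and 0% of 378 reads in small intestine, where a count of 0 allows up to 0.794%.

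The missing depth ran from no value to just under the limit. In lung 179 members had a blank cell, 113 had 10 to 19 reads and 122 had 20 or more; in spleen these numbers were 226, 130 and 58. The smallest count listed for any tissue was 10, so a blank may stand for a few reads. Members had a median of 161 reads in heart, 124 in muscle, 116.5 in liver and 96 in small intestine, against 582, 626, 412.5 and 410.5 at the sites covered in all 6 tissues. The members were thus the less deeply read sites in the 4 tissues as well. Afg3l1, a mitochondrial protease gene, lay just inside the limit with 19 reads in lung, and had 27.5% in heart, 24.2% in muscle, 7.08% in liver and 2.67% in small intestine. At the spleen limit, Mfn2 had 19 reads and Klhl26 had 20, and Klhl26 had 48.3% in heart, 55.6% in muscle, 54.4% in liver and 40.7% in small intestine. Over all 47 sites with 15 to 19 reads in lung the medians were 10.97% in heart, 12.4% in muscle, 4.71% in liver and 4.84% in small intestine. The 47 sites with 20 to 24 reads had 11.3%, 14.8%, 7.34% and 3.70% in the same order. At the spleen limit, the 50 sites with 15 to 19 spleen reads had 11.2% in heart, 10.7% in muscle, 3.24% in liver and 1.64% in small intestine, and the 65 sites with 20 to 24 had 11.03%, 11.1%, 5.77% and 3.29%. Liver was thus lower inside than outside both limits, whereas small intestine was higher inside at the lung limit and lower inside at the spleen limit.

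Members were about as strongly modified in heart and muscle as the sites covered everywhere. The median level of the 414 members was 10.7% in heart (95% interval over sites 10 to 11.7), 11.3% in muscle (10.4 to 12.2), 6.74% in liver (5.31 to 8.15) and 4.22% in small intestine (3.70 to 4.94). At the 800 sites covered in all 6 tissues it was 10.9%, 12.2%, 5.11% and 2.91% in the same order. A level of 10% or more was reached by 228 members in heart (55.1%), 239 in muscle (57.7%), 158 in liver (38.2%) and 108 in small intestine (26.1%). For the sites covered everywhere the shares were 56.4%, 63.4%, 28.6% and 14.3%. In liver and small intestine the share at 10% was thus larger among members than among the sites covered in all 6 tissues. Depth differed between these sets too, and its part in the levels was not tested. Among the 166 members whose lowest depth in the 4 tissues was 20 to 49 reads, the medians in liver and small intestine were 7.11% and 4.52%, against 5.13% and 3.57% at the 77 sites covered everywhere with that depth. At 200 reads or more they were 4.80% and 2.64% in 42 members, against 5.01% and 2.83% in 434 sites.

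**Figure D1:**
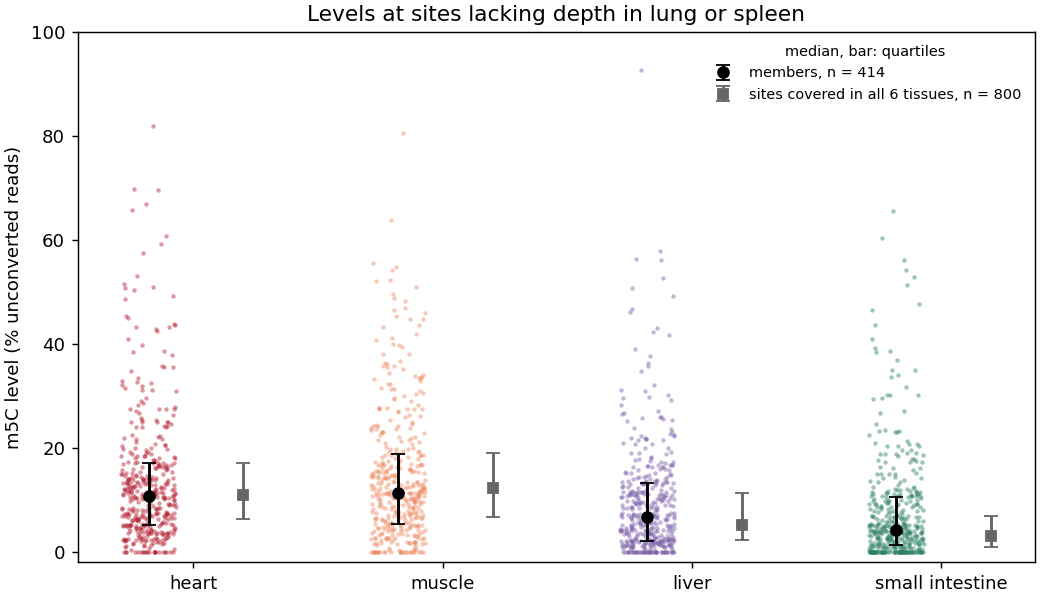
Level at each of the 414 members (coloured points, percent of unconverted reads) in heart, muscle, liver and small intestine, with the median and quartiles of the members (black) beside those of the 800 sites covered in all 6 tissues (grey). Member medians were 10.7% in heart, 11.3% in muscle, 6.74% in liver and 4.22% in small intestine.

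Most members were above 10% in a part of the tissues only. Of the 414, 50 reached 10% in none of the 4 tissues, 169 in 1, 85 in 2, 46 in 3 and 64 in all 4. These were 12.1%, 40.8%, 20.5%, 11.1% and 15.5% of the members. Of the 800 sites covered in all 6 tissues, the shares were 16.4%, 36.5%, 25%, 12.4% and 9.75%. Of the 169, muscle was the tissue for 70 (41.4%), heart for 47 (27.8%), liver for 38 (22.5%) and small intestine for 14 (8.28%). Among the 292 such sites covered in all 6 tissues, the shares were 56.2%, 31.5%, 8.56% and 3.77% in the same order. The authors' deposited calls marked 213 members as m5C sites in heart, 202 in muscle, 144 in liver and 84 in small intestine, 36 of them in all 4, and 54 members in none of the 6 tissues. These were 51.4%, 48.8%, 34.8% and 20.3% of members by tissue, 8.70% in all 4 and 13.04% in none. At the sites covered in all 6 tissues the shares were 53.4%, 56.6%, 24.6% and 11.1% by tissue, 6.5% in all 4 and 17% in none. The highest of the 4 levels was in muscle at 155 members (37.4%), in heart at 140 (33.8%), in liver at 74 (17.9%) and in small intestine at 45 (10.9%). Among the sites covered in all 6 tissues these shares were 47.75%, 33.4%, 12.6% and 6.25%. Across the members, heart and muscle levels had a Spearman correlation of 0.583 and liver and small intestine 0.675, while muscle and small intestine had 0.275. These describe 414 sites read from the same columns at unequal depth, and sites are not replicates.

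The 10 members of highest mean level were in genes of ribosomes, protein turnover and signalling. Rpl3 (ENSMUSG00000060036, chromosome 15, position 80079853), a core protein of the large ribosomal subunit, was the highest, with 82.0% of 61 reads in heart, 80.6% of 36 in muscle, 92.8% of 83 in liver and 51.3% of 39 in small intestine. Genes of ribosomal proteins have many near-identical processed copies in the genome, and reads may be shared with them. Usp3, which removes ubiquitin from histones, had 67.0% in heart, 63.9% in muscle, 56.3% in liver and 46.5% in small intestine. Selenot, a selenoprotein of the endoplasmic reticulum, had 69.6%, 52.4%, 46.2% and 56.1% in the same order, and heart was called higher than each of the other 3. Mccc1, an enzyme of leucine breakdown, ran from 35.6% in muscle to 51.0% in heart and was called different in no pair. Other members were nearly level: Srsf6, a splicing factor, had 42.9% in heart, 40% in muscle, 43.1% in liver and 43.6% in small intestine, and was also called different in no pair.

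Heart was compared with the mean of the other 3 tissues to see which sites stood out there. A site was called where Fisher's exact test (two-sided), run on its converted and unconverted reads, gave a Benjamini-Hochberg adjusted p under 0.05 over all sites tested, and the levels differed by at least 10 percentage points. Heart was higher at 61 of 414 members (14.7%) and lower at 9 (2.174%); among all 1227 sites tested, 14.2% were higher and 1.22% lower. The higher share is close to that background and is no feature of the members. With differences taken from summed reads, 4.59% were lower in heart. Without the limit of 10 points, 28.7% were higher and 9.42% lower. Of the 61, 20 were called by the authors in heart alone.

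Smyd2, a lysine methyltransferase known from heart and muscle, was a deeply read example. It had 50.8% of 1037 reads in heart (95% Wilson interval 47.8 to 53.9), against 24.6% of 2411 in muscle (22.9 to 26.4), 23.6% of 267 in liver and 17.3% of 179 in small intestine. Heart was 28.98 points above the mean of the other 3 (Fisher's exact test, adjusted p = 1.92e-53) and stood alone, since no other interval reached it. Ttl, the ligase that puts tyrosine back on tubulin, fell into steps instead: 59.2% in heart, 40.7% in muscle, 34.8% in liver and 11.1% in small intestine. It was 30.3 points higher in heart (Fisher's exact test, adjusted p = 1.50e-07) and was called in 5 of the 6 pairs of tissues; muscle and liver had overlapping intervals. Among the sites lower in heart, Eml3, of a microtubule-associated protein, had 5.45% at position 8929927 of chromosome 19, against 30.4% in muscle, 21.5% in liver and 10.6% in small intestine. Its heart level was 15.4 points below the mean of the others on 55 reads. The higher levels of this site lay in the other tissues, so this difference is given as a description, with no p.

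Muscle, the tissue with the most libraries, was higher than the mean of the other 3 at 83 members (20.05%) and lower at 8 (1.93%), against 23.5% and 1.22% of all sites tested. Of the 83, 40 were called by the authors in muscle alone and 42 in another tissue. With summed reads 3.14% of members were lower in muscle, and without the limit of 10 points 32.6% were higher and 6.04% lower. Gpt2, the mitochondrial alanine aminotransferase, had 51.0% of 4567 reads in muscle (49.5 to 52.4), 31.1% of 444 in heart, 13.3% of 5552 in liver and 6.90% of 29 in small intestine. The muscle level stood 33.9 points above the mean of the others, and the muscle, heart and liver intervals were separate. Kif13a, a kinesin that moves vesicles, had 55.6% in muscle, 48.6% in heart, 11.3% in liver and 7.79% in small intestine. Muscle was 33.0 points above the mean of the rest at this site (Fisher's exact test, adjusted p = 1.42e-05), although muscle and heart had overlapping intervals. Ube2f, an enzyme that conjugates the ubiquitin-like protein NEDD8, had 54.3% in muscle, 38.6% in heart, 15.1% in liver and 16% in small intestine. Among the sites called by the authors in muscle alone was Zfp385a, a zinc-finger gene, with 33.6% of 298 reads against 5.09% in heart, 8.49% in liver and 0% of 47 in small intestine (up to 6.38%), a difference of 29.03 points. Zfp652, another zinc-finger gene called in muscle alone, had a similar profile, with 25.3% of 178 reads in muscle, 0% of 46 in heart, 0% of 58 in liver and 3.23% in small intestine; the counts of 0 allow up to 6.52% in heart and 5.17% in liver.

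In liver 15 members were higher (3.62%) and 30 lower (7.25%) than the mean of the other 3, against 3.1% and 8.23% of all sites tested. With summed reads 13.04% were lower, and without the limit of 10 points 8.45% were higher and 30.7% lower. Myo6, a myosin that moves toward the minus end of actin, had 56.2% of 121 reads in liver (47.3 to 64.7), against 25% in heart, 21.2% in muscle and 36.9% in small intestine. Trim2, a ubiquitin ligase, had 35.7% in liver, 9.18% in heart, 4.26% in muscle and 18.7% in small intestine, and liver was 25.03 points above the others (Fisher's exact test, adjusted p = 1.63e-08). Josd2, a deubiquitinase, had 32.1% of 56 reads in liver against 7.37% in heart, 7.69% in muscle and 10.2% in small intestine. At these sites liver was the highest tissue and small intestine the next. Cmah, the enzyme that makes the sialic acid Neu5Gc, had 15.8% of 2336 reads in liver (14.3 to 17.3) and no unconverted read among 52 in heart, 80 in muscle and 77 in small intestine, where a count of 0 allows up to 5.77%, 3.75% and 3.90%. Cmah was called by the authors in liver alone, as were 11 of the 15 members higher in liver. With only sites that the authors called in a tissue other than liver, 1.25% of members were higher in liver. At a minimum of 50 reads the share was 1.61%.

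Small intestine was the low tissue. Its level was lower than the mean of the other 3 at 61 members (14.7%) and higher at 13 (3.14%), against 21.4% and 2.85% of all sites tested, and the lower calls thus took a smaller share of the members than of all sites, as a description. Without the limit of 10 points, 5.56% were higher and 37.2% lower. The median difference was -5.04 points over members and -5.81 over all sites. The authors called 84 of the members in small intestine, so most were not listed through their level in that tissue. A lower level in small intestine is therefore given as a description, with no p. Vdac1, the main channel of the mitochondrial outer membrane, was the member with the largest fall, at position 52389182 of chromosome 11, within 1 kb of the 3′ end of the gene. It had 3.81% of 289 reads in small intestine (2.14 to 6.69), against 53.1% of 1540 in heart, 46.8% of 1160 in muscle as well as 21.96% of 214 in liver, which put it 36.8 points below their mean (a difference of -36.8; Fisher's exact test, adjusted p = 1.20e-58). Mfn2, which fuses mitochondrial outer membranes, had nearly the same profile at position 147880008 of chromosome 4, with 4.43% in small intestine, 50.4% in heart, 48.8% in muscle and 18.97% in liver. Heart and muscle were alike at Mfn2, liver stood between them and small intestine, and the difference of small intestine was -34.9 points.

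A few members went the other way. Hnrnpa3, of an RNA-binding protein, had 30.2% of 96 reads in small intestine, against 16.2% in heart, 8.57% in muscle and 3.26% in liver, 20.9 points above their mean (Fisher's exact test, adjusted p = 2.11e-05). Tram1, a protein of the translocation channel of the endoplasmic reticulum that the authors called in small intestine alone, had 23.1% of 130 reads in small intestine, 6.45% in heart, 4.17% in muscle and 1.84% in liver. Nfic, a nuclear factor I gene, had 38.5% of only 26 reads in small intestine, 21.7% in heart, 9.61% in muscle and 17.03% in liver. Nid2, a basement membrane protein, had 65.5% in small intestine, 43.7% in heart, 45.4% in muscle and 52.7% in liver, and was called against heart and muscle. The site with the largest difference, 60.4% of 48 reads in small intestine against 20.6% in heart, 26.9% in muscle and 41.7% in liver, is annotated to Rps2-ps11. That is a pseudogene of a ribosomal protein, and its reads may come from the parent gene or other copies.

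**Figure D2:**
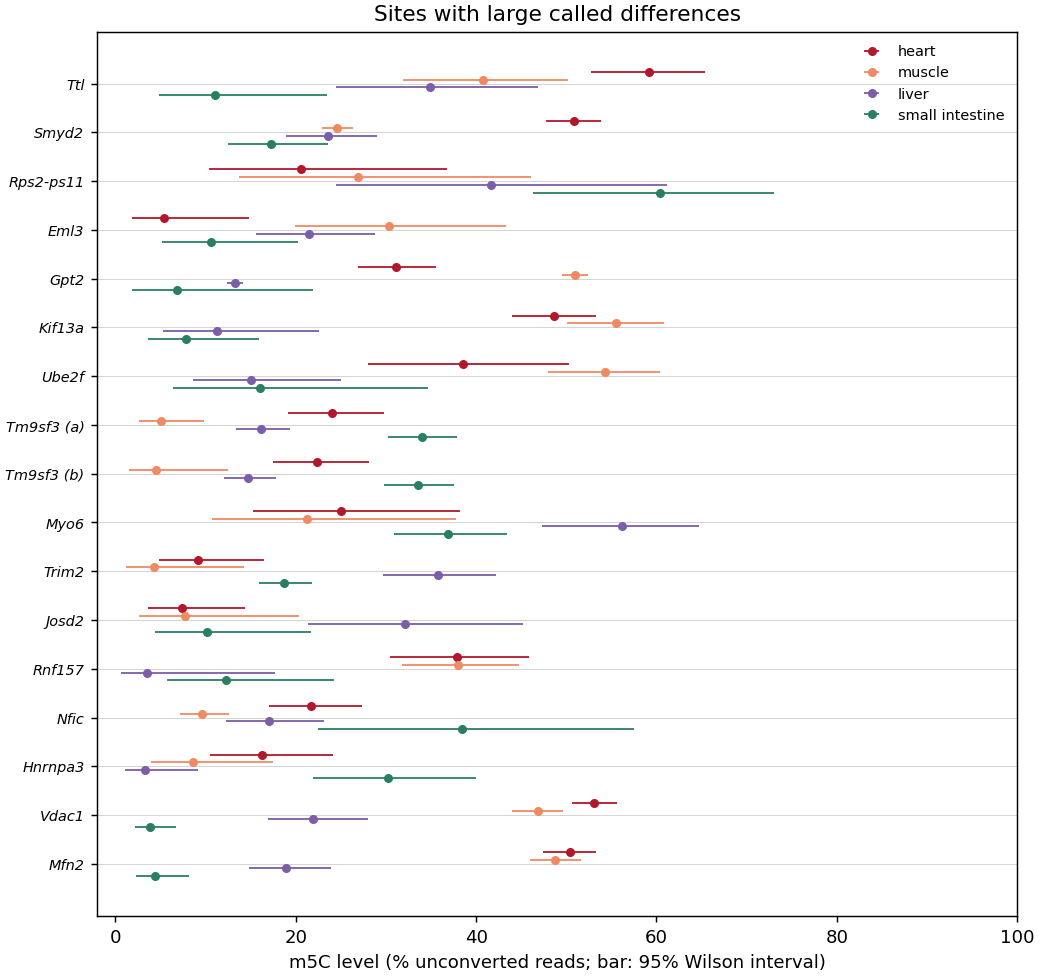
Level (percent of unconverted reads, with its 95% Wilson interval) in heart, muscle, liver and small intestine at members with large called differences, 1 site per row and 2 for Tm9sf3. At Vdac1 and Mfn2 the heart and muscle intervals lie far above that of small intestine, whereas at Smyd2 heart alone is high, with 50.8%.

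Pairs of tissues, 6 in all, were tested in the same way. Heart was higher than liver at 79 members and lower at 17, against 19.6% and 2.65% of all sites tested in that pair; the member shares were 19.1% and 4.11%. Heart exceeded small intestine at 95 (22.9%) and was lower at 7 (1.69%), against 27.5% and 2.18%. Heart was thus mostly the higher tissue in both of its pairs with liver and small intestine. Muscle was higher than liver at 90 (21.7%) and lower at 17 (4.11%), against 27.1% and 3.28%. Muscle and small intestine were the most different pair, with 127 members higher (30.7%) and 12 lower (2.90%), against 37.4% and 2.79%. Calls between the striated muscles, and between liver and small intestine, were fewer and more even in direction. Heart was higher than muscle at 25 (6.04%) and lower at 37 (8.94%), against 5.35% and 10% of sites. Liver exceeded small intestine at 21 (5.07%) and was lower at 13 (3.14%), against 8.09% and 3.12%. In the pairs of heart with small intestine, muscle with small intestine and muscle with liver, the share of members called higher was below that of all sites tested, a difference that was given no test; depth was lower at members too, and its part in this was not tested. In all, 232 members (56.0%) were called in at least 1 pair, against 61.1% of the 800 sites covered in all 6 tissues and 59.7% of all 1227 sites tested; 8 members were called in 5 pairs, none in all 6, and 182 in none. The range over the 4 tissues had a median of 11.5 points, against 11.8 at sites covered everywhere, and 143 members stayed within 10 points.

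**Figure D3:**
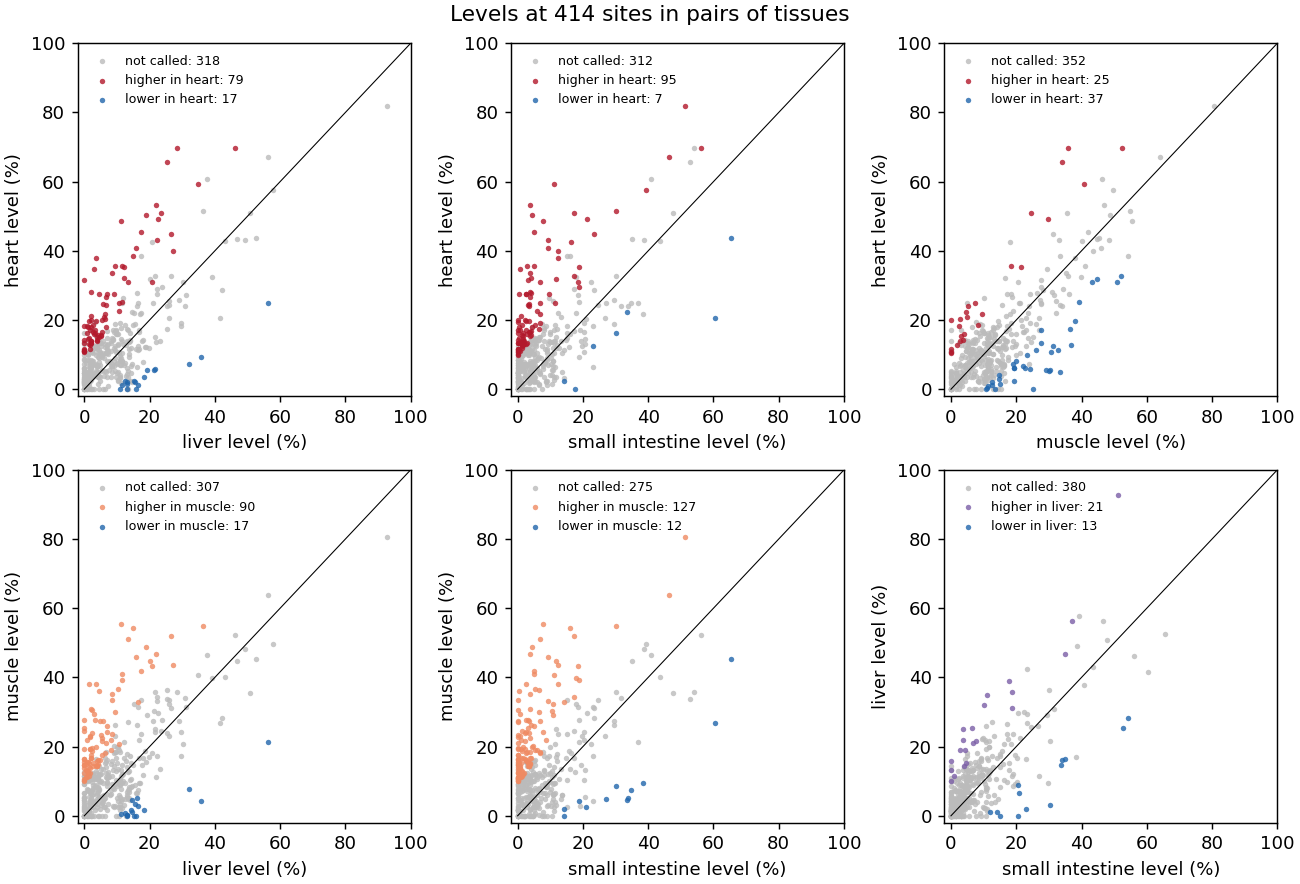
Level of each of the 414 members in the first tissue of a pair (y axis, percent of unconverted reads) against the second (x axis, percent), with sites called higher and lower coloured and the diagonal marking equal levels. Muscle was called higher than small intestine at 127 members and lower at 12.

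Genes of mitochondrial proteins encoded in the nucleus formed the largest of 7 groups of members sorted by the role of the gene, with 33 members in 29 genes. The groups were sorted after the member genes were known, so their counts are descriptions. Of the 33, heart was called higher at 9 and lower at none, muscle higher at 9 and lower at none, liver higher at 1 and lower at 6, and small intestine higher at none and lower at 9. Over all sites tested, heart was higher at 14.2%, muscle higher at 23.5%, liver lower at 8.23% and small intestine lower at 21.4%, so the counts for muscle and small intestine are near that background. Its medians were 13.3% in heart, 11.5% in muscle, 5.31% in liver and 2.44% in small intestine, against 10.7%, 11.3%, 6.74% and 4.22% over all members. Besides Vdac1, Mfn2 and Gpt2, the members of this group that differed most were Tmem126a, an assembly factor of respiratory complex I, and Afg3l1 and Mrps14, of a protease and a ribosomal protein of the organelle. Tmem126a had 34.8% of 1241 reads in heart, 29.3% of 1280 in muscle, 3.07% of 618 in liver and 0.846% of 827 in small intestine. Heart and muscle were far above the others there, with heart 23.7 points over the mean of the remaining 3 (Fisher's exact test, adjusted p = 3.70e-43). Mrps14 had 19.96% in heart, 21.5% in muscle, 5.31% in liver and 2.31% in small intestine, the same split at a lower level. The other Vdac1 member, at position 52389078, had 21.04% of 4001 reads in heart, 16.7% of 3011 in muscle, 2.14% of 888 in liver and 1.06% of 1419 in small intestine, so both sites of this gene ranked the tissues alike at different heights.

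Other members of the group had other profiles. Macrod1, a hydrolase of ADP-ribose, had 43.6% in heart, 44.9% in muscle, 46.8% in liver and 35.0% in small intestine. Mrps10, another mitochondrial ribosomal protein, had 15.4% of 65 reads in liver, against 2.04% in heart, 3.45% in muscle and 5.88% in small intestine, and was called higher in liver, the one tissue in which the authors called it. On the list of oxidative phosphorylation and TCA cycle genes, 4 members were found in 4 genes (Ndufs8, Atp5e, Atp5b and Ndufs3), and none was called in any of the comparisons of a tissue with the other 3. Atp5e, a subunit of ATP synthase, was close to level, with 13.9% in heart, 14.2% in muscle, 13.1% in liver and 11.1% in small intestine. Ndufs8, of complex I, had 10.5% of 4418 reads in heart, 8.90% in muscle, 2.69% in liver and 2.62% in small intestine, differences too small for the limit of 10 points.

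Kinases and other signalling genes of the Ras pathway had 22 members in 18 genes. There muscle was called higher at 8 members and lower at none, while heart was called higher at 2, against 23.5% of all sites tested higher in muscle and 14.2% higher in heart. The authors had called 7 of the 8 in muscle alone, all but Mast2, so the muscle difference at those 7 is a description. Medians were 6.96% in heart, 12.4% in muscle, 4.11% in liver and 5.70% in small intestine. Camk2b, a calcium-dependent kinase, had 22.8% of 701 reads in muscle, 6.19% in heart, 1.77% in liver and 0% of 126 in small intestine (up to 2.38%), 20.2 points above the mean of the others. Mast2, a microtubule-associated kinase, had 44.9% in muscle, 31.8% in heart, 20% in liver and 11.7% in small intestine. Mapk9, the stress kinase JNK2, had members 50 bases apart with 15.3% and 16.4% in muscle, 0% and 2.44% in heart, 1.43% and 0% in liver, and 0% at both in small intestine. Tesk1, Ulk2, Prkce and Sik3 were the remaining genes of this group called higher in muscle, with 11.1% to 16.2% in muscle and at most 7.01% in any other tissue.

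Ubiquitin ligases and deubiquitinases, had 28 members in 23 genes. Heart was higher at 4 and lower at 1, against 14.2% and 1.22% of all sites tested. Muscle was higher at 5 and lower at 1, against 23.5% and 1.22%. Liver was higher at 3 and lower at 4, against 3.1% and 8.23%. Small intestine was higher at none and lower at 6, against 2.85% and 21.4%. In the pair of muscle with small intestine, 10 members were higher in muscle and 1 was lower, against 37.4% and 2.79% of all sites. Cul5, the scaffold of a ubiquitin ligase, stood at 43.2% of 1192 reads in muscle, 30.9% of 786 in heart, 20.7% in liver and 18.5% in small intestine. Rnf157, a RING-finger ligase, had 38.0% in muscle, 37.8% in heart, 3.57% of 28 reads in liver and 12.2% in small intestine. Trim2 and Josd2, described above, were high in liver instead. RNA-binding and RNA-processing genes, with 19 members, had medians that were nearly level: 13.6% in heart, 10.7% in muscle, 14.2% in liver and 11.8% in small intestine. The rest of the groups kept muscle or heart as the highest tissue. Transcription factors and coregulators (26 members) had 7.96%, 11.6%, 7.93% and 5.47% in the same order. The 23 members of the secretory pathway had 11.99%, 8.82%, 10.2% and 4.88%, and small intestine was called higher at 4 of them, against 2.85% of all sites tested. These calls lay in Tm9sf3, whose 3 neighbouring sites share reads, and in Tram1, which the authors called in small intestine alone. Ribosomal and translation genes (16 members in as many genes) had 9.67%, 14.3%, 10.1% and 8.13%. Heart was called higher at 2 of them, muscle at 1 and liver at 1, Rpl3, against 14.2%, 23.5% and 3.1% of all sites tested. Small intestine was called lower at 1, against 21.4%.

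**Figure D4:**
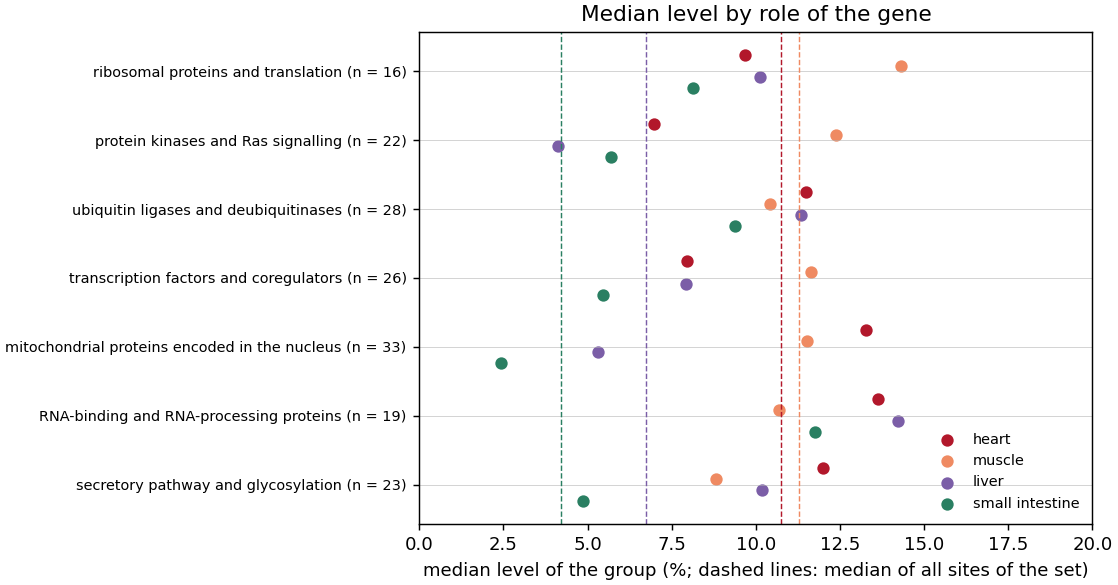
Median level (percent) of the members in each of 7 role groups, by tissue, with dashed lines at the medians of all 414 members. Mitochondrial genes had 13.3% in heart and 2.44% in small intestine, whereas RNA-binding genes had 13.6% and 11.8%.

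Of 17 gene lists of pathways and cell types, 36 members fell in any. The lists of contractile and sarcomere genes, immune cells, endothelial cells, adipocytes, smooth muscle, insulin and mTOR signalling, intestinal epithelium and the m5C machinery itself held no member. The list of fatty acid and mitochondrial enzymes held 6 members in 5 genes, of which heart was called higher at 4 and muscle at 2, while liver and small intestine were each called lower at 4, against 14.2%, 23.5%, 8.23% and 21.4% of all sites tested; its medians were 39.0% in heart, 29.9% in muscle, 13.02% in liver and 3.24% in small intestine. Decr1, an enzyme of unsaturated fatty acid oxidation, was the most even of those named, with 13.3% of 1756 reads in heart, 12.1% in muscle, 5.14% in liver and 0.680% in small intestine. Among glycolysis and glycogen genes there were 3 members. Pfkm, the phosphofructokinase of muscle, had 16.6% of 3308 reads in heart, 12.2% of 16282 in muscle, 2.67% of 75 in liver and 9.80% of 51 in small intestine. Ldhd, the D-lactate dehydrogenase, held the other 2, and at the more modified of them heart had 15.7%, muscle 11.4%, liver 4.10% of 5412 reads and small intestine 1.27%. The matrix list held Nid2 and Col15a1, a basement membrane collagen with 18.3% in heart, 21.8% in muscle, 0.794% in liver and 8.82% in small intestine.

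The most deeply read members were far from even in depth. Ace, the angiotensin-converting enzyme, had 23856 reads in small intestine and 39 in liver, yet its level was 13.9% in heart, 13.5% in muscle, 23.1% in liver and 13.3% in small intestine, and 7.79% of 4709 reads in lung. Ephx2, the soluble epoxide hydrolase, had 35.5% of 3621 reads in heart, 21.4% in muscle, 12.2% of 12507 in liver and 18.9% in small intestine. Tcea3, an elongation factor gene, had 15.7% of 5001 reads in heart, 13.6% of 15458 in muscle, 5.23% in liver and 3.96% in small intestine. A gene could thus be deepest in a tissue where its level was low, as Ephx2 was in liver.

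A total of 321 genes held 1 member, 31 held 2, 9 held 3 and 1 held 4. Another listed site lay within 10 bases on the same strand of 49 members (11.8%), against 8.00% of sites covered everywhere. These 49 had medians of 8.96% in heart, 6.25% in muscle, 10.9% in liver and 8.18% in small intestine, so liver was their highest tissue, whereas the other 365 had 11.1%, 11.7%, 5.53% and 3.76%. Neighbouring sites share reads and are not independent. Esd, the gene of esterase D, held 4 adjacent cytosines, 3 of them in the window sequence above, with 11.4% to 13.2% in liver, 1.56% to 2.38% in heart, 0.340% to 0.694% in muscle and 3.57% to 6.47% in small intestine. Liver was the only one of the 4 tissues above 10% there. Tm9sf3, of a membrane protein of the secretory pathway, held 3 sites within 4 bases with 33.6% to 34.9% in small intestine, 22.3% to 24.9% in heart, 4.55% to 7.35% in muscle and 14.7% to 16.5% in liver. Eml3 held 3 with 24.2% to 30.4% in muscle, 5.45% to 5.88% in heart, 19.2% to 21.6% in liver and 7.69% to 10.8% in small intestine.

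Mknk2, a kinase of the translation factor eIF4E, held 3 members 12 bases apart near the 5′ end, with 8.36% to 11.6% in heart, 6.47% to 10.7% in muscle, 10.9% to 15.9% in liver and 6% to 8.98% in small intestine, none called in any pair.

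Members lay near the 5′ end of their genes more than the sites covered everywhere did, as shares without a test. The tables used here give gene spans but no exons or UTRs, so sites were placed by distance to the gene ends, in protein-coding genes that span at least 10 kb. Of 307 such members, 82 (26.7%) lay less than 1 kb from the 5′ end, 47 (15.3%) less than 1 kb from the 3′ end and 178 (58.0%) elsewhere. Of 614 sites covered in all 6 tissues, 71 (11.6%) lay near the 5′ end, 121 (19.7%) near the 3′ end and 422 (68.7%) elsewhere. Depth chose the members and can vary along a transcript; its part in these shares was not tested. The 82 members near the 5′ end had medians of 9.25% in heart, 11.4% in muscle, 10.6% in liver and 8.15% in small intestine. Those near the 3′ end had 11.5%, 14.5%, 3.66% and 3.80%, and those elsewhere 9.32%, 11.01%, 4.72% and 3.46%. The 71 sites near the 5′ end that were covered in all 6 tissues had 11.3%, 10.5%, 7.25% and 5.15%. Their 422 counterparts elsewhere had 10.2%, 12.2%, 4.16% and 2.52%. Liver and small intestine medians were thus higher near the 5′ end than elsewhere in both sets. Of all 414 members, 384 were in protein-coding genes, 2 in lncRNA genes, 13 in pseudogenes and 6 in transcribed pseudogenes.

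**Figure D5:**
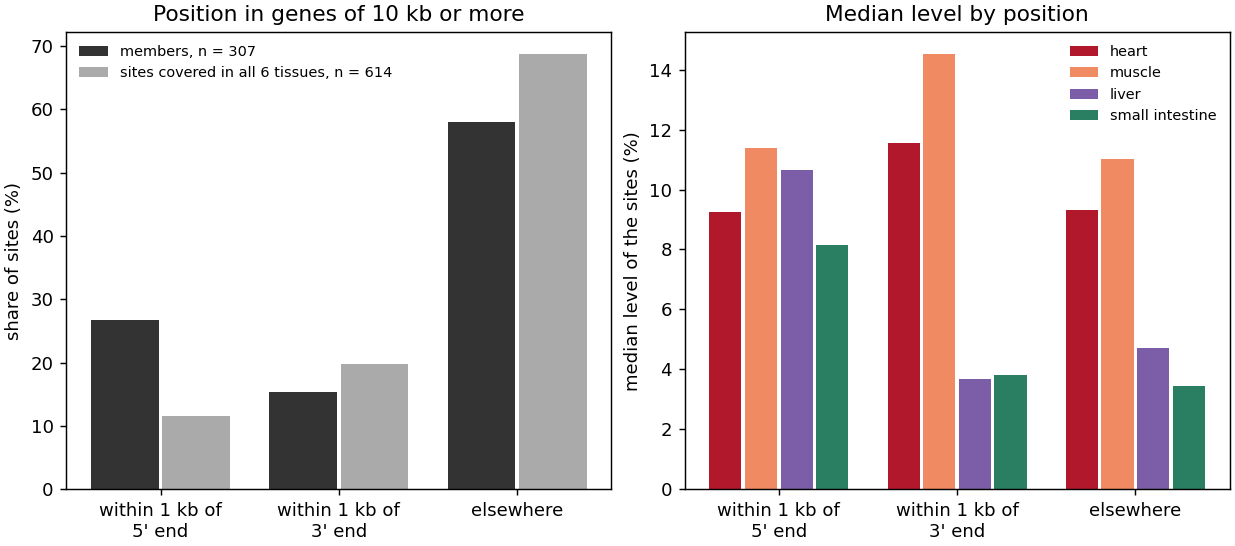
Left, share (percent) of 307 members and 614 sites covered in all 6 tissues by distance to the gene ends; right, median level (percent) of the members in each class by tissue. Members near the 5′ end were 26.7%, against 11.6% of the other sites, and their medians lay between 8.15% and 11.4% in all 4 tissues.

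Lung and spleen had a few reads at some members. At the 113 members with 10 to 19 lung reads, 38 of 1562 reads were unconverted, 2.43% (1.78 to 3.32), and 85 sites had none. The same 113 sites had a mean of 10.98% over the 4 covered tissues. At the 130 members with 10 to 19 spleen reads, 62 of 1798 were unconverted, 3.45% (2.70 to 4.40), and 96 sites had none, beside a mean of 9.81% in the 4 tissues. None of these sites was called by the authors in the tissue of few reads, while 98 of the 113 and 108 of the 130 were called in at least 1 of the 4 covered tissues. The sites thus carried their calls from those tissues, and the lower level in lung and spleen is given as a description. A single site with that few reads carries little weight, since a count of 0 of 15 allows a level of up to 20%.

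The 122 members that lacked depth in spleen alone could be tested in lung. Their medians were 1.98% in lung, 10.1% in heart, 12.4% in muscle, 4.75% in liver and 3.04% in small intestine. Lung was lower than the mean of the 4 tissues at 19 of them (15.6%) and higher at 2 (1.64%), against 19% and 1.3% of all 924 sites tested. The authors called 9 of the 122 in lung, so most were not listed through their lung level. A lower level in lung is therefore given as a description, with no p. Myo6 had 4.55% of 22 reads in lung, a difference of -30.3 points from the mean of the 4. Atp2b1, the plasma membrane calcium pump, had 14.9% of 87 reads in lung, against 51.6% in heart, 54.8% in muscle, 36.4% in liver and 30.2% in small intestine. Nid2, with 55% of 20 reads in lung, and Usp3, with 45% of 20, had no call there. Prkar2a, a regulatory subunit of protein kinase A, had 14.7% of 34 reads in lung and at most 3.99% elsewhere. Arhgap23, a GTPase-activating protein, had 10.1% of 69 reads in lung and no unconverted read in the 4 tissues, where a count of 0 of 131 reads in heart allows up to 2.29%. Neither of these was called by the authors in another tissue, so no p is given for them, and with such sites required no member was higher in lung.

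Spleen could be tested at the 58 members that lacked depth in lung alone, 37 of which had no unconverted spleen read. The median was 0% in spleen, 13.02% in heart, 12.2% in muscle, 6.12% in liver and 3.78% in small intestine. Spleen was lower at 15 of the 58 (25.9%) and higher at 2 (3.45%), against 19.8% and 1.98% of all 860 sites tested. The authors called 4 of the 58 in spleen, so lower levels there are likewise given as a description, with no p. The largest differences were at the ribosomal protein genes Rpl3 and Rpl27. Rpl22, Rpl26 and Rpl29, also of ribosomal proteins, were not called, with differences of -7.46, -6.62 and -10.0 points. At Rpl3 none of 20 spleen reads was unconverted, which allows a level of up to 15%, against 51.3% to 92.8% in the 4 tissues (a difference of -76.6 points). Rpl27 had 0 of 30 spleen reads unconverted, which allows up to 10%, against 60.8% in heart, 46.4% in muscle, 37.7% in liver and 40.9% in small intestine. Rpl3 and Rpl27 both have processed copies, and whether the reads of each tissue came from the same copy was not tested. Arid1b, a subunit of the BAF chromatin remodeller, had 0 of 48 spleen reads unconverted (up to 6.25%), against 43.2% in heart, 33.2% in muscle, 22.2% in liver and 9.38% in small intestine. Both calls higher in spleen were neighbouring sites of Chd8, a chromatin remodeller, with 21.7% of 23 reads and 16.2% of 37 in spleen; the first had no unconverted read in the 4 tissues and the second only in small intestine, at 7.59%. The authors called neither in another tissue, and no member was higher in spleen at a minimum of 50 reads, which left 5 members to test, with sites called by the authors in another tissue required, or without neighbouring sites. Ptpn4, whose site is printed above, kept 27.3% of 22 reads in spleen and was still called lower, against 39.2% to 57.9% in the 4 tissues.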

How the data were processed

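Polyadenylated RNA of 6 mouse tissues was bisulfite-treated and sequenced. The submitters' processing notes name bcl2fastq 2.17, cutadapt, Trimmomatic, HISAT2 2.10, SAMtools and the build mm10; the choice of sites and the pooling of libraries are not described there or in the labels. Per the file headers, each tissue has a coverage, deposited as counts of reads, an m5C level, deposited as a fraction and printed here as a percentage, a p-value of the authors, and their call of a site (unit other). The authors' deposited p-values were not used, and their calls only to split sites.

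Unconverted reads were recovered as level times coverage, within 0.000179 of a whole number in all 9926 filled cells. In each comparison, sites with at least 20 reads in the tissues compared were tested by a two-sided Fisher's exact test (scipy 1.17.1) and p-values were adjusted by Benjamini-Hochberg over every site tested, members or not. A call needed an adjusted p under 0.05 and 10 points. For a tissue against several others, their levels were averaged without weights to give the difference, the test from their summed reads, and both had to point the same way. The script was tested on simulated data. Intervals of levels are 95% Wilson intervals, and a count of 0 allows 3 counts of the depth; both cover counting error only, and nothing used here says if reads are independent molecules. With a single column set per tissue, a model over libraries could not be fitted.

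Gene spans, biotypes and promoter windows came from RefSeq (GRCm38.p6), matched by symbol; 405 of 414 members matched and 403 lay inside the span. No genome sequence was used. Sites named in the text are those of highest mean level, largest called differences, most pairs called, greatest depth, nearest to the depth limit, most covered in each gene list, or in genes with at least 3 members. Sites named inside the 7 role groups, the sites named for level values, and the printed sequences apart from Ptpn4 were chosen after their values were seen. The members, lists and groups were chosen with earlier results of these data known. Coverage minimum, minimum difference, the authors' calls, neighbouring sites, the definition of a member and the averaging of tissues were varied. Some sites that this rule names are not reported here.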

Additional observations from a re-analysis of the deposited data

Results flagged for a closer look

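Eif2s3y, a gene of a translation initiation factor on chromosome Y, held 1 member, at position 1011964, with reads in columns whose libraries are all labelled female. There were 64 reads in heart, 65 in liver and 38 in muscle, against 44 in small intestine, which has a female and a male library. The unconverted share was 10.9% in heart, 0% in liver and muscle, and 9.09% in small intestine. A close copy of the gene, Eif2s3x, lies on chromosome X; whether reads of that copy were placed here was not tested.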

How the results depend on the processing

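All values below are percent of members, higher first where a pair is given. Without the minimum of 10 points, heart was 28.7 and 9.42, muscle 32.6 and 6.04, liver 8.45 and 30.7, and small intestine 5.56 and 37.2, each against the mean of the other 3. Heart was then above liver at 30.7 and below small intestine at 3.38; muscle was below liver at 7.49 and below small intestine at 4.59. Heart against muscle gave 11.1 and 14.7, liver above small intestine 12.8, and lung below the 4 tissues 30.3. At 50 reads, liver higher fell to 1.61, and lung and spleen higher to 0. With sites the authors called in a tissue outside the comparison, liver higher was 1.25, heart below liver 2.44, muscle below liver 2.101, heart below muscle 5.59, and lung and spleen higher 0. Spleen higher was also 0 without neighbouring sites. In members lacking depth in both lung and spleen, heart lower was 3.42, heart below liver 6.41, and the median level was 10.3% in muscle, 8.32% in liver and 5.14% in small intestine. Taking differences from summed reads gave heart lower 4.59, muscle lower 3.14 and liver lower 13.04. Levels of summed reads, in which deep sites weigh more, were 16.7% in heart, 17.1% in muscle, 9.56% in liver and 7.97% in small intestine. The cause of these shifts was not tested. The other 110 shares and medians moved by less than 1.5 times or stayed within their spread. All 347 values recomputed for single sites kept direction and call, but many could not have changed. Dropping the minimum of 10 points (86 values) cannot remove a call. Leaving out neighbouring sites (66) or members with depth in lung or spleen (46) repeats the same test. A call could be lost at 50 reads (36), with the authors' calls required (73) or with summed reads (40). Sites that a setting left out, such as those of Chd8 at 50 reads, were not recomputed. No paired analysis was possible because each tissue has 1 column set, and for the same reason no library could be left out in turn. Depth limits what single sites show: with 20 reads, a count of 0 allows up to 15%.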
